A study of Mus musculus with 9 samples.

Results

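The Frizzled genes encode the cell-surface receptors for Wnt proteins, and all 10 mouse members, Fzd1 to Fzd10, were followed here among 22180 genes measured in RNA from the embryonic mouse cortex. Members were taken by gene symbol, and each was represented on the array by 1 feature. The family itself was chosen with earlier results of these data known. Wild-type CD1 mice gave the cortices, taken on embryonic days 12 to 13, and the study asked which of their transcripts are held by Pum2, a Pumilio-family RNA-binding protein that represses translation. The 3 groups were RNA precipitated with a rabbit antibody to Pumilio2 (Pum2), RNA precipitated with normal rabbit IgG (IgG), which gives the level reached without the specific antibody, and unprecipitated total RNA (input), each in 3 biological replicates on Mouse Gene 2.0 ST arrays. No group carried a genetic change or a treatment. The tissue was bulk cortex, so the cells that a transcript came from cannot be told. The values were relative to the other transcripts on the same array, not absolute amounts bound.

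Wnt proteins bind the extracellular cysteine-rich domain of a Frizzled receptor, often together with the co-receptors Lrp5 or Lrp6. The receptor then recruits Dishevelled inside the cell, which either stabilises beta-catenin or acts on planar cell polarity and the cytoskeleton. In the embryonic cortex, Wnt signals act on the division of radial precursors, the stem cells that line the ventricle, and on the production and wiring of neurons. By sequence relation the receptors fall into the groups Fzd1, Fzd2 and Fzd7; Fzd5 and Fzd8; Fzd4, Fzd9 and Fzd10; and Fzd3 and Fzd6, and the results follow that order.

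Most Frizzled transcripts gave a higher signal with the Pum2 antibody than with nonspecific IgG, and 1 was lower. Of the 10, 7 rose (Fzd1, Fzd2, Fzd6, Fzd7, Fzd8, Fzd9 and Fzd10), Fzd3 fell, and Fzd4 and Fzd5 did not pass the test (limma adjusted p under 0.05). Among all genes 19.4% were called higher and 11.4% lower in the same comparison. Calls were more frequent among genes whose mean signal was at or above the median, 34.1% higher and 18% lower, and 8 of the 10 Frizzled genes lay in that range. Signals of different features do not compare as abundances, and brightness is given here only as a property of the features. Of those 8, 6 were called higher and 1 lower. The median log2 difference of the 10 members was 0.51, beside 0.04 for all genes and 0.12 for genes at or above the median signal. Against input, 6 members rose (Fzd1, Fzd2, Fzd4, Fzd7, Fzd8 and Fzd10) and 0 fell. The member median was then 0.66, beside 0.07 for all genes and 0.12 for the brighter genes. Over input 21.6% of all genes were called higher and 13.1% lower (37% and 21.9% of the brighter genes). No member was lower at an unadjusted p under 0.05 in that comparison. For counts at an unadjusted p, here and below, no share over all genes was computed. Both comparisons use the same Pum2 arrays.

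**Figure D1:**
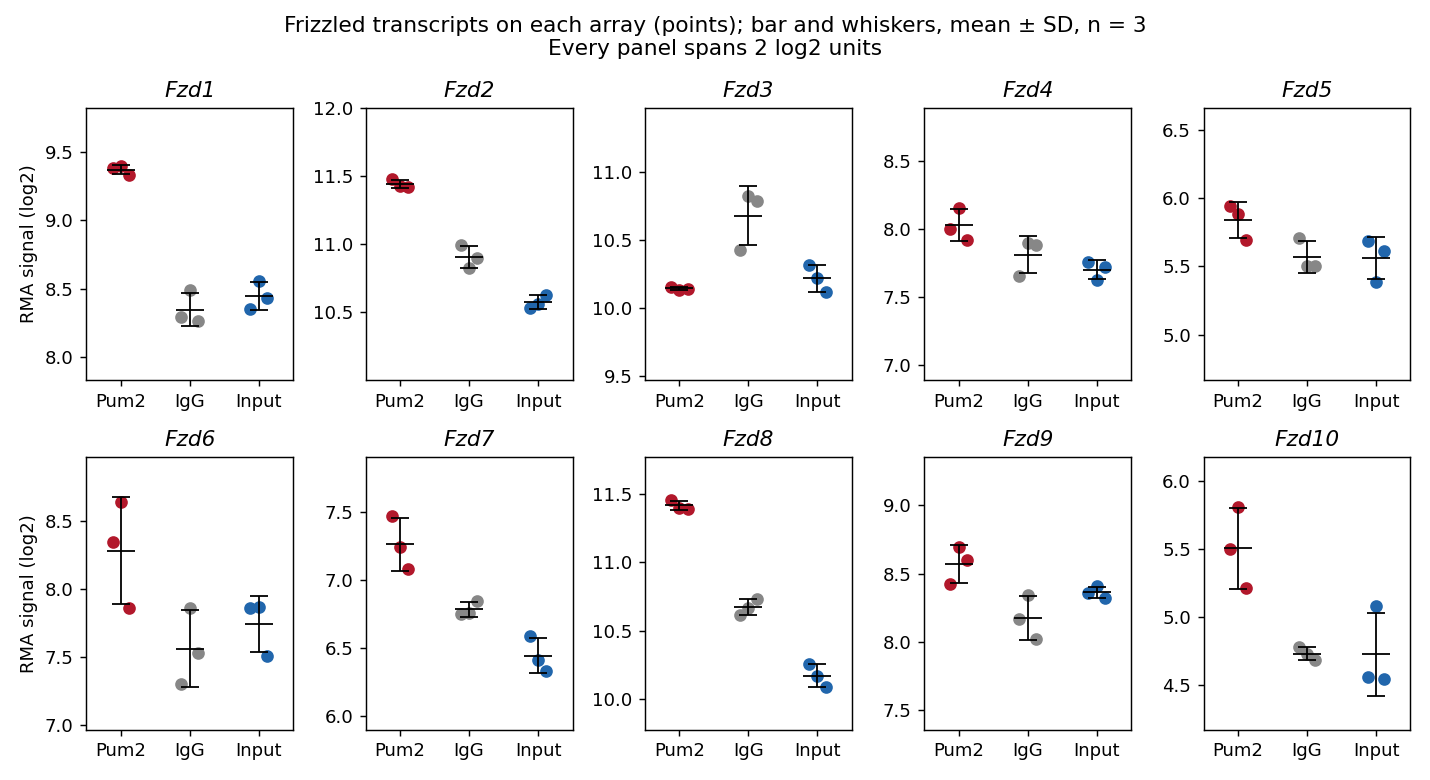
RMA signal (log2) of each Frizzled transcript on each array, with the Pum2 precipitates in red, the IgG precipitates in grey and input in blue; the bar and whiskers are the mean ± SD (n = 3), and every panel spans the same range of log2 units. The Pum2 arrays of Fzd1, Fzd2, Fzd7 and Fzd8 lie above all other arrays, as do those of Fzd4, Fzd9 and Fzd10 by narrower margins. Those of Fzd3 lie below all IgG arrays.

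In the first group of receptors, Fzd1, which acts mainly through beta-catenin, gave log2 signals of 9.38, 9.40 and 9.33 in the 3 Pum2 precipitates, against 8.29, 8.49 and 8.26 in IgG and 8.35, 8.56 and 8.43 in input. The Pum2 arrays stood apart, while IgG and input overlapped. Fzd1 was 2.03-fold higher with Pum2 than with IgG (1.02 ± 0.09 on the log2 scale, SE, 3 arrays in each group, adjusted p = 2.16e-05 in limma), a difference larger than that of 99.4% of all genes. Against input it was 0.92 ± 0.09 higher (adjusted p = 2.07e-05), and IgG differed from input by -0.10 ± 0.09 (adjusted p = 0.487). For this transcript the order was therefore Pum2 above the other groups, with no order between those.

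Fzd2, a receptor that can also pass on beta-catenin-independent Wnt5a signals, gave 11.48, 11.43 and 11.42 with Pum2, against 10.99, 10.83 and 10.90 with IgG and 10.53, 10.56 and 10.63 in input. The 3 groups did not overlap, in the order Pum2, IgG, input. The Pum2 signal was higher than IgG by 0.54 ± 0.07 and higher than input by 0.87 ± 0.07 (limma adjusted p = 0.000327 and 1.07e-05). Nonspecific IgG was itself above input by 0.33 ± 0.07 (adjusted p = 0.00992), so part of the distance from input was present without the Pum2 antibody. Fzd7, a receptor widely used by stem and precursor cells, gave 7.47, 7.24 and 7.08 with Pum2, against 6.75, 6.76 and 6.85 with IgG and 6.59, 6.41 and 6.34 in input. Its groups kept the same order without overlap. Fzd7 rose by 0.48 ± 0.11 over IgG (limma adjusted p = 0.00658) and by 0.82 ± 0.11 over input (adjusted p = 0.000189). IgG over input was 0.34 ± 0.11 and missed the threshold (adjusted p = 0.0537), although it passed in 9 of 18 alternative settings.

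Fzd8, a receptor of the precursor zone of the forebrain, was the member with the largest rise over input. It gave 11.46, 11.40 and 11.39 with Pum2, against 10.61, 10.67 and 10.73 with IgG and 10.25, 10.17 and 10.09 in input. All 3 groups were separate, again in the order Pum2, IgG, input. Fzd8 was 2.37-fold higher with Pum2 than in input (1.25 ± 0.07, limma adjusted p = 1.4e-06), which ranked 38 among the differences of 22180 genes, counted from the highest. Against IgG the difference was 0.75 ± 0.07, or 1.68-fold (adjusted p = 5.08e-05), and IgG exceeded input by 0.50 ± 0.07 (adjusted p = 0.00129). Its close relative Fzd5, known for roles in eye development, was dim, below the median signal of all genes. It ranged over 5.69 to 5.95 with Pum2, 5.50 to 5.71 with IgG and 5.38 to 5.68 in input. The Pum2 and IgG arrays of Fzd5 overlapped, and the Pum2 arrays lay just above those of input. Fzd5 differed from IgG by 0.27 ± 0.11 (95% interval 0.04 to 0.51, limma adjusted p = 0.0819) and from input by 0.28 ± 0.11 (0.04 to 0.52, adjusted p = 0.068), and neither difference passed. The difference from input passed in 3 of 17 alternative settings, 1 of them without Pum2 replicate 3 (0.35, adjusted p = 0.0415).

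Fzd4, the receptor for Norrin as well as Wnts and a regulator of retinal vessels, ranged over 7.92 to 8.16 with Pum2, 7.65 to 7.90 with IgG and 7.63 to 7.76 in input. The Pum2 arrays lay above both controls by a narrow margin. Fzd4 was 0.33 ± 0.09 higher than input (limma adjusted p = 0.0209) and differed from IgG by 0.21 ± 0.09 (adjusted p = 0.118, 95% interval 0.01 to 0.42). The call against input ended without input replicate 2 (0.29, adjusted p = 0.0735), without Pum2 replicate 2 (0.26, adjusted p = 0.0811) or with arrays centred on the brighter genes (0.26, adjusted p = 0.0557).

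Fzd9, linked to hippocampal development in mice, ranged over 8.42 to 8.69 with Pum2, 8.02 to 8.34 with IgG and 8.32 to 8.41 in input. Pum2 arrays were above all control arrays, and IgG overlapped input. It was higher than IgG by 0.40 ± 0.10 (limma adjusted p = 0.013), whereas 0.21 ± 0.10 over input did not pass (adjusted p = 0.146). Without Pum2 replicate 2 the call against IgG ended (0.33, adjusted p = 0.0522). Fzd10, a receptor of dorsal neural tissue, had the dimmest feature of the family, with signals of 5.50, 5.81 and 5.21 with Pum2, against 4.78, 4.73 and 4.68 with IgG and 4.56, 5.08 and 4.54 in input. Every Pum2 array was above every control array, although the highest input array came close to the lowest Pum2 array. Fzd10 rose by 0.78 ± 0.17 against each control (adjusted p = 0.00563 for IgG and 0.00449 for input). Among genes below the median signal, 4.61% were called higher over IgG and 6.27% over input. The opposite-strand transcript Fzd10os, looked at after its values were seen, has a feature of its own and differed by -0.08 ± 0.08 between Pum2 and IgG (adjusted p = 0.558).

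Fzd3 went the other way. It encodes a receptor of planar polarity that is required in mice for the growth of major forebrain axon tracts. Signals were 10.16, 10.14 and 10.14 with Pum2, against 10.43, 10.82 and 10.79 with IgG and 10.32, 10.22 and 10.12 in input. The Pum2 arrays lay below all IgG arrays and overlapped those of input. Fzd3 was 1.45-fold lower with Pum2 than with IgG (-0.53 ± 0.11 on the log2 scale, limma adjusted p = 0.0037), and only 5.9% of genes had a more negative difference. Against input the difference was -0.07 ± 0.11 (adjusted p = 0.658, 95% interval -0.31 to 0.17). The IgG precipitate was above input by 0.46 ± 0.11 (adjusted p = 0.0142), which made IgG the highest group for this transcript, with no order between Pum2 and input. The IgG call ended without IgG replicate 2 (0.39, adjusted p = 0.0515), IgG replicate 3 (0.41, adjusted p = 0.0546) or input replicate 3 (0.41, adjusted p = 0.0527). The fall against IgG kept its call in all 18 alternative settings, with differences of -0.66 to -0.46.

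Fzd6, the nearest relative of Fzd3 and a planar polarity receptor that orients hair in mice, gave 8.34, 8.63 and 7.86 with Pum2, against 7.30, 7.86 and 7.53 with IgG and 7.86, 7.86 and 7.51 in input. The lowest Pum2 array met the highest IgG array, and the value 7.86 was exactly the same on 3 arrays, 1 of each group. Such a value shared by 3 or more arrays occurred in 21.1% of all genes. Fzd6 was higher than IgG by 0.72 ± 0.20 (limma adjusted p = 0.0211), with the widest error of the family, and 0.53 ± 0.20 over input did not pass (adjusted p = 0.0653). Leaving out IgG replicate 1 (0.58, adjusted p = 0.0822) or 3 (0.70, adjusted p = 0.0578) ended the call against IgG. It also ended when Pum2 replicate 1 (0.68, adjusted p = 0.068) or 2 (0.54, adjusted p = 0.0796) was left out. The difference over input passed in 5 of 18 alternative settings. Fzd3 and Fzd6 thus had calls of opposite sign against IgG, with 95% intervals of -0.78 to -0.29 and 0.27 to 1.16; a difference between members was not tested.

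**Figure D2:**
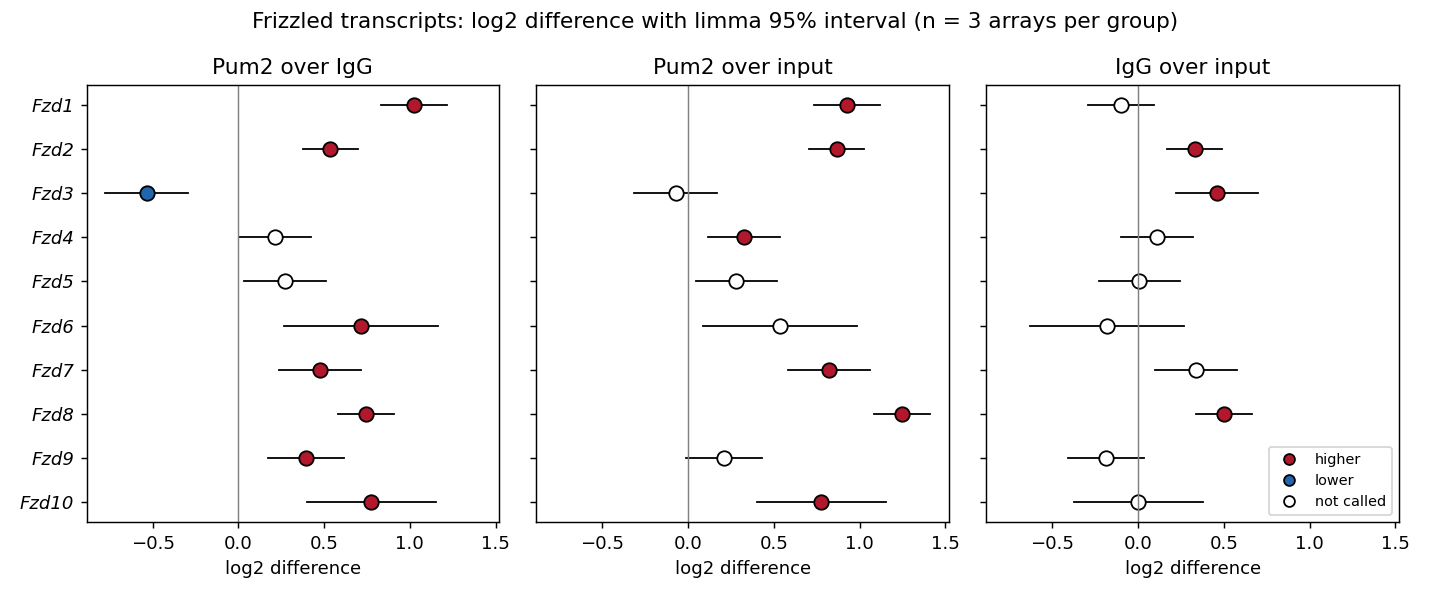
Log2 difference of each Frizzled transcript with its limma 95% interval for the 3 comparisons, Pum2 over IgG at the left, then Pum2 over input, then IgG over input (3 arrays in each group); red is called higher, blue lower, white not called. Fzd3 is the single member left of 0 in Pum2 over IgG, and Fzd8 has the largest difference over input, 1.25.

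Nonspecific IgG by itself changed fewer members. In IgG over input Fzd2, Fzd3 and Fzd8 were called higher and 0 lower. The member median was 0.06, beside 0.02 for all genes and -0.01 for the brighter genes. Of all genes 8.25% were called higher and 9.72% lower. No negative difference of a member reached an unadjusted p under 0.05 in limma there, and the lowest was that of Fzd9 (-0.19 ± 0.10). In that comparison 13.8% of the brighter genes were called higher and 17.8% lower. The IgG and input arrays did not overlap for Fzd2, Fzd3, Fzd7 and Fzd8, and the IgG arrays lay above in each; IgG lay wholly above input for 15.9% of all genes and 23.9% of the brighter genes.

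Counting arrays without a model gave a similar picture. The Pum2 arrays lay wholly above IgG for 7 members (Fzd4 among them, Fzd6 not) and wholly below for Fzd3, where 25.9% and 15.4% of all genes did so. Of the brighter genes 41.7% lay wholly above and 22.7% wholly below. Against input they lay wholly above for 8 members, all but Fzd3 and Fzd6, where 28.5% of all genes and 44.4% of the brighter genes did. Called rises of at least 1.5-fold numbered 4 against IgG (Fzd1, Fzd6, Fzd8 and Fzd10), where 6.53% of all genes and 12.3% of the brighter genes had one. Against input they numbered 5 (Fzd1, Fzd2, Fzd7, Fzd8 and Fzd10), where 8.31% of all genes and 15.4% of the brighter genes had one. With 3 arrays on each side the smallest p of an exact permutation test is 0.1, so the calls rest on the spread that limma shares across genes.

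**Figure D3:**
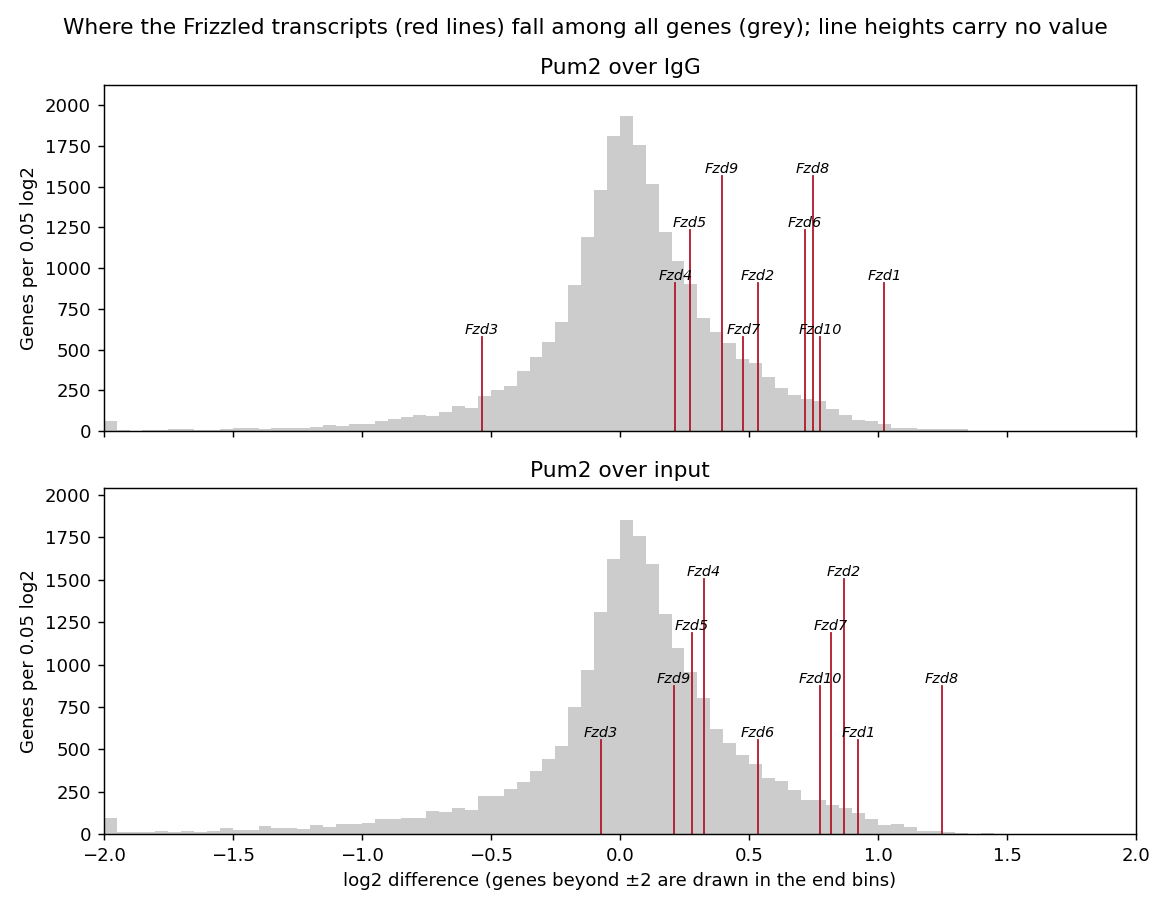
Number of genes per step of 0.05 in log2 difference (grey) for Pum2 over IgG and Pum2 over input, with red lines at the Frizzled transcripts; the heights of the lines carry no value. Fzd1 lies above 99.4% of genes against IgG and Fzd8 above 99.8% against input, whereas Fzd4, Fzd5 and Fzd9 lie within the broad right shoulder and Fzd3 lies to the left.

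Across the 9 arrays, which fall into 3 kinds of RNA, the profiles of the members were compared as a description. Fzd2 and Fzd8 were the pair most alike (Pearson r = 0.98), followed by Fzd7 and Fzd8 (0.97) and Fzd2 and Fzd7 (0.94). Fzd1 was most like Fzd10 (0.90). Fzd3 had a negative r with all 9 other members, between -0.67 with Fzd9 and -0.07 with Fzd4. Outside the family, the brighter gene most like Fzd8 was Gbf1, a regulator of Golgi traffic (r = 0.997), which was 0.63 higher than IgG and 1.13 higher than input. The gene most like Fzd2 was Anks1 (r = 0.99), that most like Fzd7 was Fxr2, an RNA-binding protein (0.99), and that most like Fzd1 was Zfp282 (0.99). St3gal5, an enzyme of ganglioside synthesis, was most like Fzd3 (0.98) and was likewise lower than IgG (-0.45, limma adjusted p = 0.00334). For the other members the closest genes were Gcc2 (Fzd4, 0.98), Hspa4l (Fzd5, 0.99), Etfdh (Fzd6, 0.98), Psmd9 (Fzd9, 0.97) and Plppr1 (Fzd10, 0.98). These values follow mainly from the group means and say nothing beyond likeness in these arrays.

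The receptors' partners were read from lists of Wnt pathway genes, whose counts stand beside 19.4% of all genes called higher and 11.4% lower over IgG (34.1% and 18% of the brighter genes). Over input the shares were 21.6% and 13.1% (37% and 21.9% of the brighter genes). Of the 19 ligands 5 were among the brighter genes, of the 20 relay genes all 20. The brighter genes also held 10 of the 11 co-receptors and other receptors and 10 of the 12 polarity partners. Of 19 Wnt ligands, 7 rose over IgG and 0 fell (median 0.25), and 5 rose over input; 0 were called in IgG over input, where 1 ligand, Wnt6, was lower at an unadjusted p under 0.05. Wnt7a, a ligand made by cortical precursors, rose by 0.52 ± 0.07 over IgG (limma adjusted p = 0.000405) and by 0.42 ± 0.07 over input (adjusted p = 0.00117). Wnt6 and Wnt4, both dimmer than the median gene, were higher than IgG by 0.53 ± 0.13 and 0.53 ± 0.15 (adjusted p = 0.0109 and 0.0218). Over input Wnt6 was at 0.13 ± 0.13 (adjusted p = 0.492) and did not pass, and IgG was at -0.40 ± 0.13 against input (adjusted p = 0.0623). The Wnt4 call ended when arrays were centred by their brighter genes (0.43) and when IgG array 1 (0.51) or 2 (0.50), or Pum2 array 1 (0.40) or 2 (0.46), was left out. Of 6 genes for the secretion and extracellular handling of Wnts, 2 rose over IgG, the glypican Gpc4 (0.58 ± 0.09, adjusted p = 0.000902) and Porcn, the enzyme that adds the lipid to Wnts (0.28 ± 0.09, adjusted p = 0.042). The Porcn call was lost in 12 of 18 alternatives, with values of 0.19 to 0.31.

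Co-receptors and other Wnt receptors gave 5 higher and 2 lower of 11 over IgG (median 0.23), where 34.1% and 18% of the brighter genes were called so. The list includes Smo of the Hedgehog pathway, which was 1 of the 2 lower calls. Lrp5, a co-receptor that binds Wnts beside Frizzled, gave 11.08, 11.36 and 10.90 with Pum2, against 10.05, 10.30 and 10.23 with IgG and 9.98, 10.12 and 9.86 in input. All Pum2 arrays were above all control arrays, and the rise over IgG was 0.92 ± 0.12 (limma adjusted p = 0.000336). Ptk7 and Ror1, receptor-like proteins of polarity signalling, rose by 0.59 ± 0.10 and 0.59 ± 0.11. Smo, the Hedgehog signal transducer and the other receptor of the Frizzled class, gave 9.74, 9.92 and 9.82 with Pum2, against 10.85, 10.96 and 10.98 with IgG and 10.51, 10.98 and 10.77 in input. Its Pum2 arrays lay below all others, a 2.15-fold lower signal than with IgG (-1.10 ± 0.11, adjusted p = 6.66e-05) and -0.93 ± 0.11 against input (adjusted p = 0.000124). Tspan12, which helps Fzd4 respond to Norrin, was lower than IgG (-0.34 ± 0.12, adjusted p = 0.0485), a call lost in 11 of 18 alternatives, with values of -0.38 to -0.22. Over input Tspan12 was at -0.06 and did not pass (limma adjusted p = 0.721).

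Among 16 secreted antagonists and their receptors, 5 rose and 0 fell over IgG (median 0.24). In the lists of ligands, secretion, turnover and polarity genes 0 fell either. Of these 5 lists 0 genes were lower than IgG at an unadjusted p under 0.05 in limma, a cut without a share over all genes here. The brighter genes held 9 of the 16 antagonists, 5 of the 6 secretion genes and 5 of the 10 turnover genes. Sfrp2, a soluble protein with a Frizzled-like Wnt-binding domain, gave 7.45, 7.69 and 7.51 with Pum2, against 6.67, 6.68 and 6.70 with IgG and 6.48, 6.21 and 6.17 in input. It was highest in the Pum2 arrays with no overlap, by 0.87 ± 0.10 over IgG (limma adjusted p = 0.000122) and by 1.26 ± 0.10 over input (adjusted p = 7.51e-06). With the mean of all its features in place of the brightest one, the rises of Sfrp2 were 0.52 and 0.82 (limma adjusted p = 0.00132 and 5.15e-05). Kremen1, a Dickkopf receptor, and Dkk3 rose by 0.64 ± 0.10 and 0.64 ± 0.15 over IgG. Genes of Frizzled turnover and the R-spondin system gave 1 call of 10, Lgr4, an R-spondin receptor (0.49 ± 0.13, adjusted p = 0.0155). That call ended without IgG replicate 1 (0.43), IgG replicate 3 (0.46) or Pum2 replicate 1 (0.40). Rnf43 and Znrf3, ubiquitin ligases that remove Frizzled receptors from the surface, differed from IgG by 0.25 and 0.21 without passing (adjusted p = 0.16 and 0.208); over input Znrf3 rose by 0.71 and Rnf43 was at 0.09 (adjusted p = 0.000667 and 0.617).

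Inside the cell, 11 of 20 relay genes rose over IgG and 2 fell (median 0.31), and 14 rose over input. The scaffold gene Axin1 rose by 0.83 ± 0.11, the beta-catenin cofactor gene Bcl9l by 0.77 ± 0.10 and Dvl2 by 0.81 ± 0.11 over IgG. The Dishevelled genes, whose products bind Frizzled directly, did not move together, since Dvl3 fell (-0.27 ± 0.07, limma adjusted p = 0.0174) and Dvl1 was at -0.19 (adjusted p = 0.135). Without IgG replicate 1 or Pum2 replicate 1 the Dvl3 call ended (-0.24 and -0.23). Over input Dvl3 was at -0.04 and Dvl1 at -0.02, and neither passed (limma adjusted p = 0.687 and 0.886). For Dvl3, IgG over input was 0.20 to 0.30 in the alternative settings and passed in 5 of 18. Csnk1e, a kinase that phosphorylates Dishevelled, was lower than IgG (-0.29 ± 0.06) and higher than input (0.27 ± 0.06, adjusted p = 0.00579 and 0.00672). Of 12 planar polarity partners 7 rose over IgG and 0 fell (median 0.33). With the replicate number added to the model, 5 were called higher. The polarity scaffold gene Scrib rose by 0.69 ± 0.07, the adhesion receptor gene Celsr2 by 0.53 ± 0.08 and Fuz by 0.47 ± 0.11. Over input Fuz did not pass (0.11 ± 0.11, limma adjusted p = 0.488), and IgG was at -0.36 ± 0.11 against input (adjusted p = 0.0508). Vangl2, a core polarity protein that acts with Fzd3 and Fzd6, was at -0.10 against IgG (limma adjusted p = 0.321) and rose by 0.41 over input (adjusted p = 0.000854), where IgG by itself was 0.51 above input (adjusted p = 0.000775). All other genes of these lists together, Smo of the Hedgehog pathway included, gave 38 higher and 4 lower of 94 over IgG. They gave 44 and 1 over input, and 19 and 2 in IgG over input. Smo was among the lower calls over IgG and was the lower call over input. In IgG over input 8.25% of all genes were called higher and 9.72% lower.

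**Figure D4:**
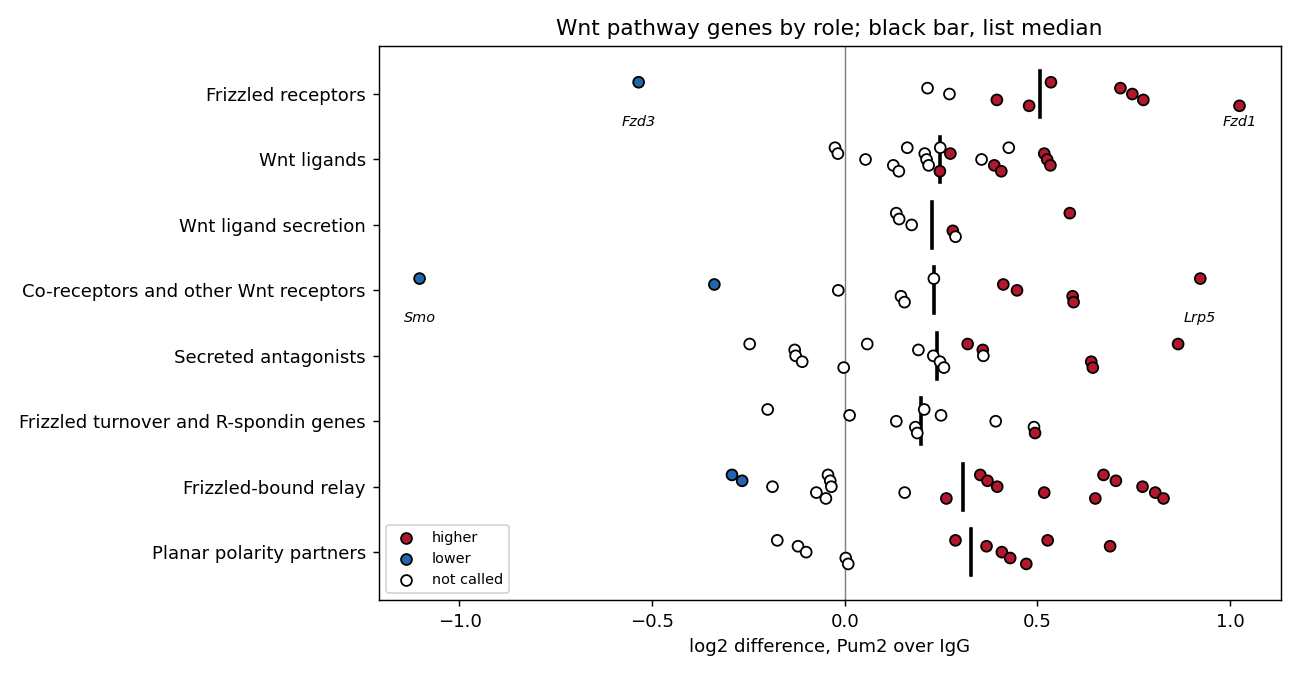
Log2 difference, Pum2 over IgG, of each Wnt pathway gene by role (red called higher, blue lower, white not called; black bar, list median). The Frizzled median, 0.51, lies to the right of the medians of the other lists drawn here, 0.20 to 0.33. Smo (-1.10), a Hedgehog pathway gene placed with the other receptors, and Fzd3 (-0.53) are the lowest points.

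Tissue identity and the other cell types in the lysate were read from marker lists. In input the features of Pax6 and Sox2, which mark precursors, averaged log2 signals of 9.50 and 10.78, and those of Tubb3 and Dcx, which mark young neurons, averaged 10.04 and 10.62, where the median gene was at 6.08; this shows bright features, not abundance. The counts below stand beside 19.4% of all genes called higher and 11.4% lower over IgG, and 34.1% and 18% of the brighter genes; all 10 radial precursor and all 9 endothelial markers are among the brighter genes. Radial precursor markers rose over IgG in 5 of 10 cases and fell in 0, with a mean log2 signal of 9.70 to 9.79 with Pum2, 9.31 to 9.42 with IgG and 9.34 to 9.38 in input. Endothelial and pericyte markers, a cell type that uses Fzd4, gave 5 higher and 1 lower of 9, with 8.05 to 8.20 with Pum2, 7.58 to 7.83 with IgG and 7.49 to 7.66 in input. Meningeal and mesenchymal markers rose in 5 of 8 cases and fell in 0, with 7.64 to 7.74 with Pum2, 7.14 to 7.32 with IgG and 6.99 to 7.04 in input. Hem and choroid plexus markers gave 0 calls of 8 over IgG. Their mean log2 signal varied widely within each group, from 5.37 to 6.21 with Pum2, 5.25 to 5.96 with IgG and 5.31 to 6.16 in input. Markers of the ganglionic eminence gave 1 higher and 1 lower of 8, young neuron markers 2 and 2 of 8, microglial markers 2 and 0 of 8, and red blood cell markers 0 of 4. List medians over IgG were 0.54 for endothelial, 0.51 for meningeal and 0.35 for radial markers, beside 0.51 for the Frizzled genes. They were 0.26 for ganglionic eminence, 0.26 for microglial, 0.22 for hem, 0.08 for young neuron and -0.10 for red blood cell markers. The shares over input were 21.6% higher and 13.1% lower of all genes, and 37% and 21.9% of the brighter genes. Of the 8 meningeal markers 7 are among the brighter genes, as are 7 of 8 young neuron and 3 of 4 red blood cell markers. Fewer are bright among microglial (4 of 8), ganglionic eminence (3 of 8) and hem markers (3 of 8). Of genes below the median signal 4.61% were called higher and 4.7% lower over IgG, so few calls could come from dim features. Over input, meningeal markers were called higher in 8 of 8 cases (median 0.67), endothelial markers in 7 of 9 with 1 lower (median 0.64) and radial markers in 7 of 10 with 2 lower (median 0.44). Young neuron markers gave 5 higher and 2 lower of 8 over input, ganglionic eminence markers 2 and 0 of 8, microglial markers 2 and 1 of 8, red blood cell markers 0 and 2 of 4, and hem markers 0 of 8. Over IgG, at an unadjusted p under 0.05 in limma, the hem and red blood cell lists also had 0 genes past in either direction, and the radial, meningeal and microglial lists had 0 lower. With the replicate number added to the model, Wnt8b of the hem list was called higher over IgG and over input. Hba-x of the red blood cell list was then called lower over IgG. The part of these cell types in the Frizzled differences was not tested.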

How the data were processed

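RNA of 9 samples was measured on Mouse Gene 2.0 ST arrays, 3 each of Pum2 precipitate, IgG precipitate and input from cortex. RNA was recovered after immunoprecipitation with a kit, amplified and biotin-labelled, per the labels' protocols. Per the submitters' processing notes, the deposited log2 values were made by the authors with RMA in Affymetrix Expression Console, which corrects background, normalizes arrays and summarises probes; neither versions nor the genome build are stated in the sources used. Arrays have no read depth, so their number and the signal over background limit precision.

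Of 41345 features, 23521 carried 1 gene symbol, 1814 several and 16010 were unnamed here. Where several features had the same symbol, that with the highest 9-array mean stood for the gene, which left 22180 genes; the array medians were 6.06 to 6.10. All 10 Frizzled genes matched RefSeq symbols by Entrez identifier. Across genes, arrays of a group correlated with r of 0.994 to 0.996. Array pairs of different groups gave 0.977 to 0.989. The Frizzled genes and the gene lists were chosen with earlier results of these data known. A linear model with 3 groups was fitted to the 9 arrays together (limma 3.58.1, R 4.3.3, 6 residual degrees of freedom), with Benjamini-Hochberg adjustment over 22180 genes and calls below 0.05. The pipeline was tested on simulated data. Named partners were up to 3 called members of a list with the largest and up to 2 with the most negative difference over IgG, and Smo; the closest gene by Pearson r was taken among the brighter genes, those whose mean reached the median. Other partners given with values (Vangl2, Rnf43, Znrf3, Dvl1, Rspo2 and Rspo3) were named after their values were seen. So were the markers Wnt8b and Hba-x. Sequences were not used here.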

Additional observations from a re-analysis of the deposited data

How the results depend on the processing

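The number of Frizzled genes called stayed within 1.5 times under every alternative run. It was 8 against IgG, 6 against input and 3 in IgG over input, and leaving out 1 array at a time gave 6 to 8, 5 to 8 and 2 to 4. Fzd1, Fzd2, Fzd7, Fzd8 and Fzd10 kept both Pum2 calls in every alternative in which they were tested, and Fzd3 kept its lower call against IgG; no called Frizzled difference changed sign. Centring arrays on the brighter genes lowered the Frizzled median against IgG to 0.41, with 8 calls. A quantile normalization over all features, chosen after seeing the data, took the median of all genes against IgG to 0.19 and the number of genes called to 10236, against 6815; the Frizzled median was then 0.57, and Fzd4 (0.28) and Fzd5 (0.47) passed. The share of all calls that were higher against IgG was 63%, and 53.5% with quantile normalization of the genes, 46.9% with centring and 79.1% with all features; against input it was 62.3%, and 55.8%, 52.2% and 76.6%. The main model left the replicate number out, and an alternative model entered it as a block. Deviations of same-numbered arrays from their group means correlated weakly, with r of 0.002 to 0.135. However, 9 of 9 arrays correlated best with their own number, so same-numbered arrays were alike in part. The main model leaves that shared variation in its error. With the replicate block, 8 Frizzled genes were called against IgG, 8 against input and 4 in IgG over input. The calls it added were Fzd5 and Fzd6 over input (adjusted p = 0.044 and 0.0191 in limma) and Fzd7 in IgG over input (adjusted p = 0.0478). Of the 10 turnover and R-spondin genes, 3 were called over IgG with the block, against 1 without it, the added genes being Rspo2 (0.39) and Rspo3 (0.49), with adjusted p of 0.0325 and 0.00248 in limma, against 0.344 and 0.209. The block also removed calls over IgG. Of the 12 polarity partners 5 were called higher, against 7, and of the 6 secretion genes 1, against 2. Co-receptors and other receptors had 1 lower call, against 2. Of the 16 antagonists 6 were called higher, against 5. The 94 genes of the partner lists together gave 38 higher and 3 lower, against 38 and 4. Fzd5 and Fzd10 had features below the median signal, where fewer genes were called.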
